A study of Mus musculus with 78 samples.

Results

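Clpb and 9 further genes for mitochondrial chaperones and proteases were followed through the acute loss of the transcription factor ZFP143 in mouse embryonic stem cells (mESCs). The other 9 were Clpp, Clpx, Lonp1, Hspd1, Hspe1, Hspa9, Htra2, Afg3l2 and Spg7. All 10 were among the 55401 genes of each of the 3 count tables, and all 10 passed the filter on low counts in every table. Clpb was chosen from earlier results of these data, taken here to be its fall after depletion, so its values in depleted cells are given as a description with no test. The other 9 belong to the same functional class, and they too were grouped on knowledge of earlier results.

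The cells were E14TG2a mESCs of genotype ZFP143-FKBP, grown from picked clones in which both copies of Zfp143 carry an FKBP degron, HA tags and a GFP marker, and every group below shares that genotype. How many clones stand behind these libraries is not given in the sources used here. The degrader dTAG-V1 at 500 nM removes the fusion protein, and DMSO is the solvent control. Transient transcriptome sequencing (TT-seq), which captures RNA made during 10 min of labelling with 2 mM 4-thiouridine, covered DMSO and 2, 6 and 24 h of dTAG. RNA-seq, from libraries of a stranded mRNA kit, covered DMSO and 24, 48 and 72 h of dTAG. A second RNA-seq table held cells kept for 24 h in DMSO or dTAG, before and after a further 24 h with retinoic acid (RA), so its depleted RA libraries had 48 h of dTAG, and RA came with a change to a differentiation medium, so that neither effect can be told apart from the other. Each group had 2 biological replicates. Contrasts with DMSO within a time course share their DMSO libraries, so they are not independent. The RA table has a DMSO group before and another after RA, so its dTAG effects before and after RA share a fit but no library.

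Mitochondria import most of their proteins unfolded and keep their own machinery to fold and remove them. HSPA9, the mitochondrial Hsp70, pulls precursors into the matrix, and the chaperonin of HSPD1 (Hsp60) and its lid HSPE1 (Hsp10) folds them. CLPX unfolds substrates for the protease CLPP, LONP1 degrades damaged matrix proteins, AFG3L2 and SPG7 form the m-AAA protease of the inner membrane, HTRA2 is a serine protease of the space between the membranes, and CLPB is a disaggregase in that same space. Several of these genes are known targets of the mitochondrial unfolded protein response, in which ATF4, ATF5 and DDIT3 (CHOP) act as transcription factors.

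ZFP143 is known to bind a long promoter element with the letters ACTACA near its start and CCCANNATG further on, where N is any base. In the list of 3189 ZFP143 peaks, a gene counted as bound when a peak touched the stretch that begins 2000 bp before and ends 1000 bp after a transcript start and had its centre within 2000 bp of that start. Of the 10 members 5 were bound, Clpb, Clpp, Hspd1, Hspe1 and Htra2, against 16% of the 12807 genes tested in all 3 tables. Since Clpb was not an independent choice and Hspd1 and Hspe1 share a peak, the 5 genes rest on 4 peaks. With peaks of at least 10-fold enrichment over input alone, 3 of the 10 were bound, Clpb, Clpp and Htra2. The share of all genes at that enrichment was not computed, so the 16% is no background for this count.

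The bound members lie on 4 chromosomes. Clpb spans chr7:101663633-101795506 on the plus strand, Clpp chr17:56990305-56996188 on the plus strand and Htra2 chr6:83051266-83055273 on the minus strand. Hspd1 (chr1:55077835-55088243, minus strand) and Hspe1 (chr1:55088132-55091307, plus strand) sit head to head.

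The peaks differed widely in height. The Htra2 peak (mm10, chr6:83054260-83055005) was enriched 153-fold and ranked 18 of 3189, and it is shared with Aup1, a gene of lipid droplets and protein quality control that starts 752 bp away in the opposite direction. Its summit lay 23 bp past a transcript start of Htra2, in untranslated exon sequence of both genes. The Clpb peak (chr7:101663395-101664100) was enriched 128-fold and ranked 42, with its summit 19 bp past the outermost Clpb start, in an untranslated exon, and it was the only 1 of the 4 that overlapped a CTCF peak. The Clpp peak (chr17:56989751-56990670) was enriched 46.4-fold and ranked 741, with its summit 359 bp upstream of Clpp. The peak that Hspd1 and Hspe1 share (chr1:55087736-55088130), with its summit in an untranslated exon of Hspd1, was enriched 6.26-fold and ranked 2976, near the foot of the list. The nearest peaks to Lonp1 and Spg7 were 13498 and 20242 bp from their starts, that to Clpx was 79614 bp away, and those to Afg3l2 and Hspa9 were 160260 and 185888 bp away.

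**Figure D1:**
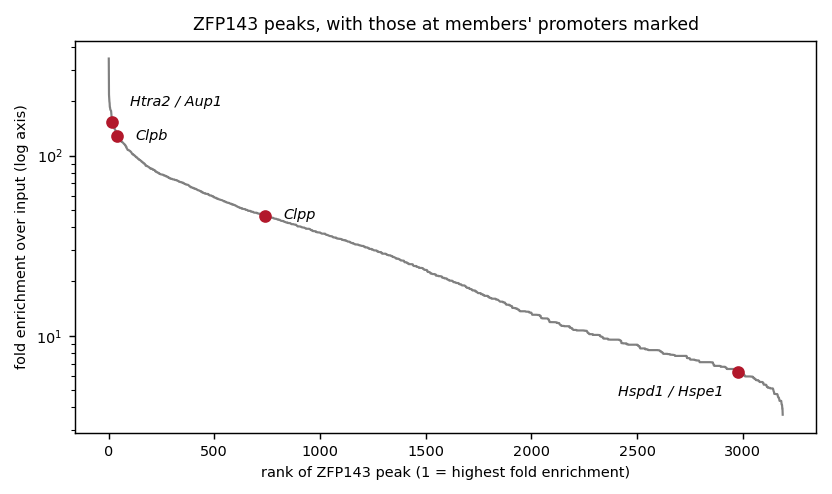
Fold enrichment over input of the 3189 ZFP143 peaks on a log axis (vertical), ordered by rank (horizontal), with the 4 peaks at members' promoters as red points. The Htra2/Aup1 and Clpb peaks sit among the 42 highest at 153-fold and 128-fold, Clpp at 46.4-fold and Hspd1/Hspe1 at 6.26-fold near the right end.

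The sequence by these summits is shown because the 3 higher peaks share a run of letters that the low peak lacks. In the reference genome (GRCm38.p6, the mm10 build, from RefSeq), 30 bases at or close to each summit read as follows, 5′ to 3′ on the minus strand, with capitals for ACTACNNTT followed directly by CCC.
Clpb, chr7:101663622-101663651: aaacaaACTACATTTCCCcgagggctgtgg
Clpp, chr17:56989950-56989979: tccagaACTACAATTCCCagctgctttgcg
Htra2/Aup1, chr6:83054523-83054552: gacgggACTACGTTTCCCggcatgcgctga
Hspd1/Hspe1, chr1:55088053-55088082: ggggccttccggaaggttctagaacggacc

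The capital letters were chosen after these sequences had been seen. Searched on both strands of 300 bases, they occurred around the summits of 17.7% of all ZFP143 peaks and in 1.04% of 32817 RefSeq promoters. The shorter ACTACA, which overlaps them, occurred around 40.1% of summits and in 10.3% of promoters, and was found at the Clpb and Clpp summits but not at those of Htra2 and Hspd1/Hspe1. CCCANNATG occurred around 25.7% of summits and in 5.01% of promoters, and of the 4 summits only that of Htra2 held it. Both in the same 300 bases occurred around 9.16% of summits, in 0.826% of promoters and at none of the 4. All these percentages count exact letters, with no mismatch allowed, and are not shares of peaks that hold a ZFP143 motif. The paper used motif matrices in place of exact letters and found ZFP143 motifs in nearly all of its peaks. RefSeq promoters were at hand for Clpb, Clpp, Clpx, Lonp1, Hspd1, Hspe1 and Spg7, and ACTACA was found in those of Clpb and Clpp.

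In the 24 libraries total counts ran from 9721568 to 16532077 in TT-seq, from 10261851 to 15316700 in the RNA-seq time course and from 13890761 to 27089033 in the RA table. Levels are CPM (reads of a gene relative to all reads of its library) scaled by TMM, and RPKM where genes are compared, per length of exons in RNA-seq and of the whole gene in TT-seq. All 8 stem cell markers were above 10 counts in every group. Their summed level was 6520 to 6725 CPM in the DMSO libraries of the time course and 4216 to 4265 after 72 h, while in TT-seq it was 3437 to 3699 in DMSO and 3378 to 3655 after 24 h. In the RA table it was 7085 to 7227 in DMSO and 1365 to 1947 after RA in DMSO. Markers of fibroblasts, trophoblast, primitive endoderm and neural cells summed to at most 84.7 CPM in any library. Those of trophoblast summed to 16.0 to 16.2 CPM in the DMSO libraries of the time course against 0.242 to 0.456 after 24 h of dTAG. In these DMSO libraries only 1 of the 3 trophoblast markers was above 10 counts. In the DMSO libraries of the RA table before RA the same sum was 1.09 to 1.15 CPM. The part of these shifts in the members' levels was not tested, and in bulk RNA fewer cells of a type and less RNA per cell cannot be told apart. The Zfp143 transcript does not check the depletion, which acts on the protein. It rose in TT-seq from 71.3 and 74.4 CPM to 162 and 165 CPM after 2 h (log2 change 1.17 ± 0.11 (SE), adjusted p = 0.00104, edgeR quasi-likelihood test).

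Before depletion the chaperones of the matrix were by far the most abundant members. In the DMSO libraries of the RNA-seq time course Hspd1 stood at 268 ± 8.7 RPKM (SD, n = 2), Hspa9 at 257 ± 5.8 and Hspe1 at 159 ± 2.9. The difference between Hspd1 and Hspa9 was within about their joint spread. The proteases came next, with Clpp at 74.9 ± 2.0 RPKM and Lonp1 at 51.7 ± 0.012. Spg7 (19.5 ± 0.80), Clpx (15.4 ± 0.43) and Afg3l2 (13.9 ± 0.20) followed. Clpb (11 ± 0.33 RPKM) and Htra2 (10.9 ± 0.17) were lowest on this scale and did not differ beyond their spread. The order rests on the summed length of all annotated exons, 9960 bp for Clpb, 2946 bp for Htra2 and 1223 bp for Clpp. In CPM, which is not scaled by length, Clpb stood at 110, above Clpp (91.6), Clpx (53.7) and Htra2 (32.0). In TT-seq the same 3 chaperones led, with Hspd1 at 26.8 ± 7.9 RPKM, Hspa9 at 22.3 ± 1.2 and Hspe1 at 21.6 ± 3.6, a spread wider than the gaps between them. Clpp (5.56 ± 0.23) and Lonp1 (5.49 ± 0.85) again came next, and the other 5 lay between 1.21 and 2.2 RPKM.

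Clpb made the deepest fall of the 10 in every RNA-seq contrast of dTAG with DMSO, which is a description, as it was taken to be chosen for its fall. In TT-seq its fall was the deepest at 2 h, while Htra2 fell further at 6 and 24 h. Newly made Clpb RNA stood at 255 and 286 CPM in DMSO. Depleted libraries held 80.7 and 81.1 CPM (2 h), 77.6 and 77.8 (6 h), and 60.4 and 56.4 (24 h of dTAG). All 6 depleted libraries lay far below both controls. The log2 change in TT-seq was -1.74 ± 0.12 (SE) at 2 h, -1.80 ± 0.12 at 6 h and -2.21 ± 0.12 at 24 h, so that most of the 4.63-fold fall at 24 h was already there at 2 h, at 3.34-fold. In RNA-seq Clpb stood at 112 and 108 CPM in DMSO, and dTAG left 17.1 and 18.9 (24 h), then 16.9 and 17.6 (48 h) and lastly 13.9 and 11.7 (72 h). The depleted groups did not overlap the controls, and the fall was 6.11-fold at 24 h and 8.68-fold at 72 h.

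**Figure D2:**
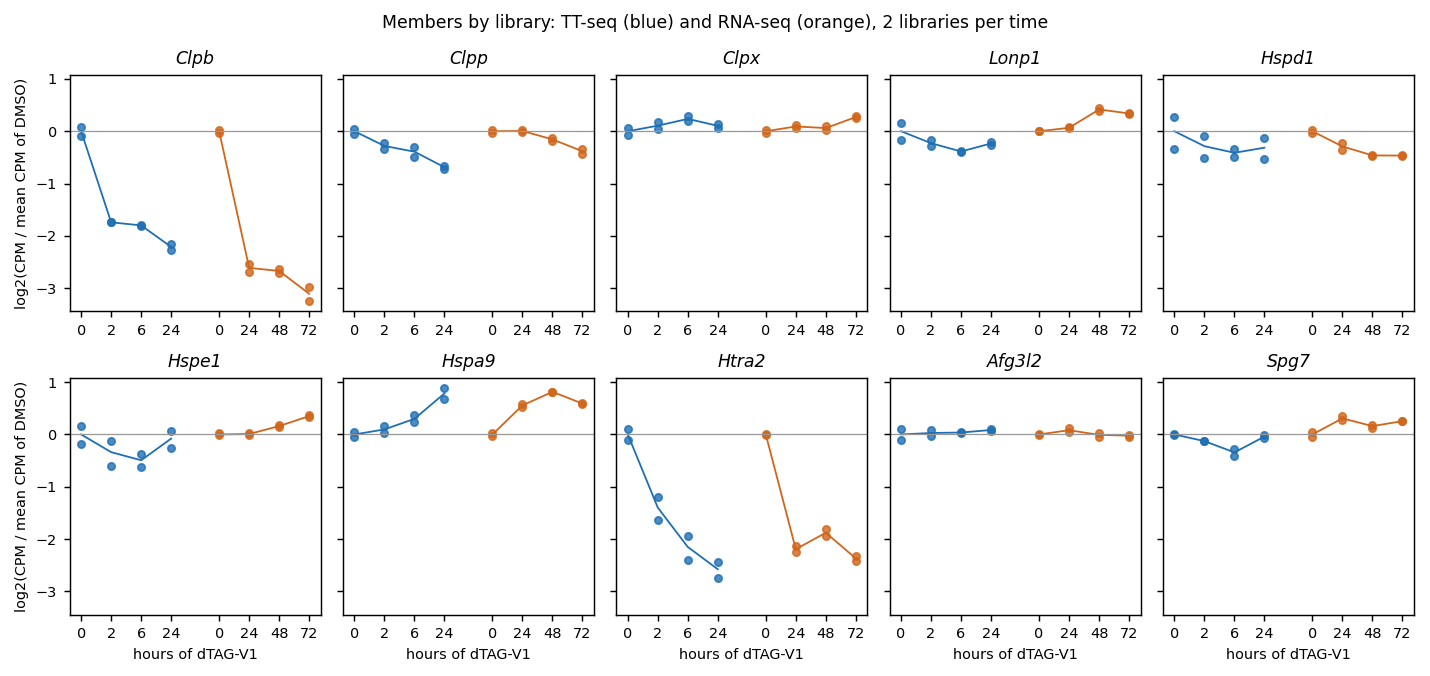
Level of each member in each library as log2 of its CPM over the mean CPM of the DMSO libraries (vertical) against hours of dTAG-V1 (horizontal), TT-seq in blue and RNA-seq in orange, points for libraries and lines through the means of 2. Clpb and Htra2 drop by over 1 log2 unit from the earliest time, Hspa9 climbs, and Afg3l2 stays near 0 throughout.

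Over the 8 contrasts of dTAG with DMSO, the genes whose log2 changes lay nearest those of Clpb, by mean absolute difference among 12810 genes, were Zfp637 (0.23), 2410015M20Rik (0.27), Cdk5 (0.31), Kdelc1 (0.33) and Zfp109 (0.33). All 5 had a ZFP143 peak at the promoter, enriched 25.6-fold to 139-fold. So did 385 of the 435 genes called lower in TT-seq at 2 h, at any enrichment. The letters shared by Clpb, Clpp and Htra2 were found around the summits of 2 of the 5, 2410015M20Rik and Zfp109. None of the 5 is a member, and the nearness is a description, as the contrasts within a time course share controls.

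Among the other 9 members Htra2 alone was called 2 h after dTAG. In TT-seq 1 of the 9 fell and 0 rose, where 2.43% of all 17870 tested genes fell and 0.168% rose. At 6 h it was again 1 lower and 0 higher, against 2.83% and 0.397%. At 24 h 2 fell, Htra2 and Clpp, and 1 rose, Hspa9, against 4.09% and 2.02%. Calls in TT-seq needed an adjusted p under 0.05 by the edgeR quasi-likelihood test and an absolute log2 change above 0.5. For the 0 members higher, 0 had an unadjusted p under 0.05 at 2 h and 1 at 6 h, Hspa9, and DESeq2 called 0 at either time. At 6 h 5 of the 9 were lower at an unadjusted p under 0.05, Htra2, Clpp, Lonp1, Spg7 and Hspe1, and DESeq2 called 1. For counts at an unadjusted p, here and below, the share of all genes was not computed. The shares of called genes are no background for them. The median log2 change of the 9 was -0.23 at 2 h, -0.39 at 6 h and -0.08 at 24 h, beside 0.01 for all tested genes at each time. As a backdrop, 16.9% of the 2278 tested genes with a peak at the promoter and 0.321% of the 15592 without fell at 2 h. Of the 4 bound members besides Clpb, 1 fell at that time, and of the 5 unbound members 0 did.

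Htra2 encodes the protease HtrA2, or Omi, which also promotes cell death when released from mitochondria. Its new RNA held 6.10 and 7.01 CPM in DMSO, against 2.87 and 2.11 with 2 h of dTAG, 1.71 and 1.24 with 6 h and 0.984 and 1.22 with 24 h. Every depleted library lay below both controls, on low counts, with 59 and 92 reads in DMSO and 10 and 16 at 24 h. The fall was 2.65-fold at 2 h (log2 change -1.41 ± 0.30, adjusted p = 0.0467), 4.41-fold at 6 h (-2.14 ± 0.32, adjusted p = 0.00807) and 5.88-fold at 24 h (-2.56 ± 0.33, adjusted p = 0.00359). The call at 2 h was lost with DESeq2 (adjusted p = 0.144) and without any of its 4 libraries in turn (adjusted p from 0.0975 to 0.367), and that at 6 h when DMSO replicate 2 (0.0532) or a library of 6 h was left out (0.0701 and 0.110). The call at 24 h held in all 9 alternatives.

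In RNA-seq the Htra2 fall was clearer, on higher counts. From 32.3 and 31.6 CPM in DMSO, it came to 6.70 and 7.30 (24 h), 8.32 and 9.08 (48 h) and then 6.38 and 6.00 (72 h). No depleted library came near the controls. The falls of 4.57-fold, 3.68-fold and 5.18-fold had adjusted p-values of 1.06e-12, 1.55e-11 and 3.49e-14 by edgeR's glmTreat against a fold change of 1.5, with which RNA-seq genes were called at an adjusted p under 0.01. All 10 alternatives kept the call at each of the 3 times.

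Aup1, the divergent neighbour that shares the peak of Htra2, moved with it. Newly made Aup1 RNA went from 15.7 and 15.8 CPM in DMSO to 5.90 and 5.0 after 2 h and 4.13 and 3.87 after 24 h. The 2.90-fold fall at 2 h had an adjusted p of 0.00571 and that of 3.94-fold at 24 h 0.00176, both by the quasi-likelihood test. In RNA-seq it fell 3.18-fold at 24 h and 2.37-fold at 72 h (adjusted p = 3.76e-11 and 3.38e-08, glmTreat). The annotated ends of Htra2 and Aup1 overlap by 753 bp on opposite strands, and Loxl3 overlaps Htra2 by 1297 bp on the opposite strand as well, so these values rest on the strand-specific counting.

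Clpp, the proteolytic partner of Clpx, drifted down in nascent RNA. Controls held 31.8 and 33.7 CPM, the 2 h libraries 25.9 and 28, the 6 h libraries 23.4 and 26.5, and the 24 h libraries 19.9 and 20.7. Each depleted library was below both controls. The log2 change reached -0.69 ± 0.15 at 24 h (adjusted p = 0.0315, quasi-likelihood test), a call lost without any of the 4 libraries in turn (adjusted p from 0.0775 to 0.132). In RNA-seq Clpp was at 93.4 and 89.9 CPM in DMSO and 67.8 and 72.7 after 72 h, and its log2 change came to 0.01 ± 0.06 (24 h), -0.15 ± 0.06 (48 h) and -0.38 ± 0.06 (72 h), none of them called. Clpx itself had nascent log2 changes of 0.11 ± 0.13, 0.24 ± 0.13 and 0.10 ± 0.13 and was not called at any time.

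Hspa9 was the only member called higher in dTAG than in DMSO, and its nearest peak lies 185888 bp away. Its new RNA held 364 and 393 CPM in DMSO, 386 and 423 with 2 h of dTAG, 444 and 486 with 6 h and 695 and 608 with 24 h. The 2 h libraries overlapped the controls and those of 6 and 24 h lay above them. The snoRNAs Gm22200 and Gm26109 overlap Hspa9 by 67 and 70 bp on the same strand, and their part in its counts was not tested. The log2 change was 0.10 ± 0.13 at 2 h and 0.78 ± 0.13 at 24 h, a rise of 1.72-fold (adjusted p = 0.00922, quasi-likelihood test), which was lost without DMSO replicate 1 (0.0504) or 24 h replicate 1 (0.0615). Between 24 h and 2 h the log2 difference was 0.69 ± 0.13 (adjusted p = 0.0775), not called, whereas 3 alternatives called it (adjusted p from 0.000435 to 0.0168), DESeq2 among them (0.00175).

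In RNA-seq Hspa9 began at 1091 and 1126 CPM in DMSO and reached 1666 and 1592 with 24 h of dTAG, 1942 and 1954 with 48 h and 1656 and 1681 with 72 h. All depleted libraries lay above both controls. The rise passed the test at 48 h, at 1.76-fold (log2 change 0.81 ± 0.04, adjusted p = 3.12e-06, glmTreat), and held in all 10 alternatives. At 24 and 72 h the ratios of 1.47 and 1.51 were too near the tested 1.5-fold to be called (adjusted p = 1 and 0.515). Against no change instead, with an absolute log2 change above 0.5 and an adjusted p under 0.05, both would be called (adjusted p = 2.61e-12 and 1.49e-13, quasi-likelihood test).

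**Figure D3:**
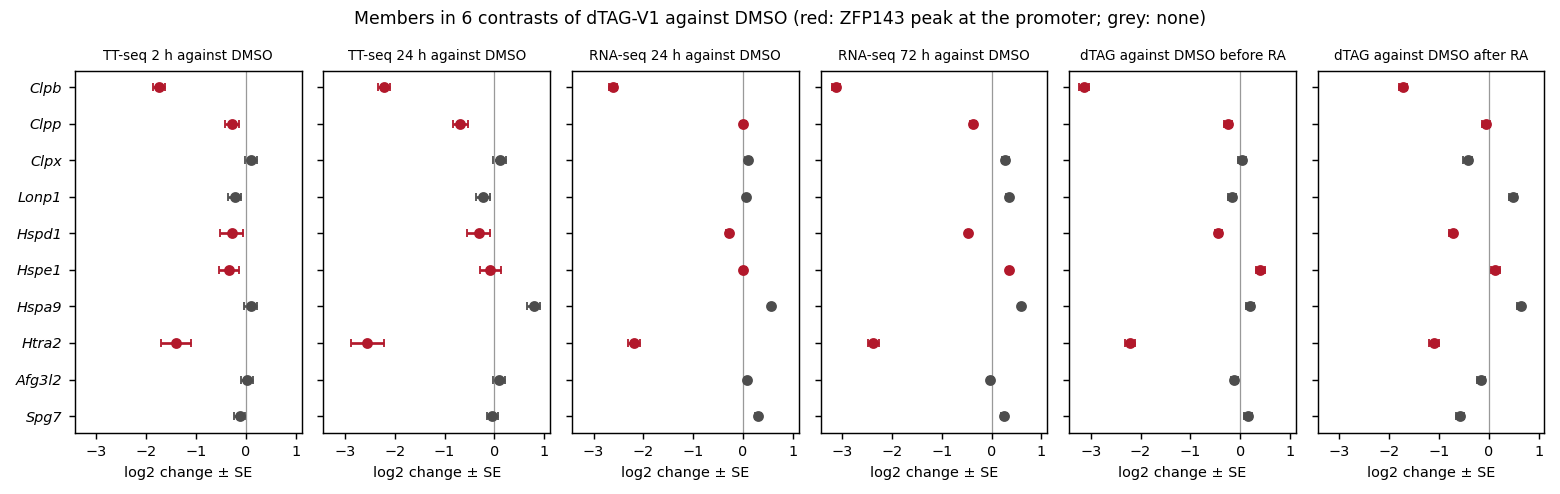
Log2 change with its standard error (horizontal) of each member (vertical) in 6 contrasts of dTAG-V1 with DMSO, red for members with a ZFP143 peak at the promoter and grey for those without. Clpb and Htra2 lie far to the left in each panel, from -1.10 to -3.13, while the other 3 red points lie between -0.72 and 0.41.

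Hspd1 and Hspe1 make the 2 parts of the chaperonin from a shared promoter and a shared weak peak. In RNA-seq Hspd1 was at 692 and 725 CPM in DMSO, then 603 and 556 (24 h), 520 and 509 (48 h), and 510 and 516 (72 h). Hspe1 was at 231 and 237, then 239 and 231, then 259 and 263, then 296 and 301. At 72 h Hspd1 lay below and Hspe1 above its controls in both libraries, with log2 changes of -0.47 ± 0.04 and 0.35 ± 0.04, neither of which was called against 1.5-fold. The difference between both genes was not tested. In TT-seq their groups mostly overlapped, with 221 and 338 CPM of Hspd1 in DMSO, and no call was made. Hspd1, Hspe1 and Hspa9 have processed pseudogenes in the genome, so reads that match several copies could make these values uncertain, which was not tested.

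The other proteases showed smaller shifts. Lonp1 was at 226 CPM in both DMSO libraries in RNA-seq, at 306 and 297 after 48 h and at 287 and 285 after 72 h, with log2 changes of 0.07 ± 0.04, 0.42 ± 0.04 and 0.34 ± 0.04 that were not called. Spg7 had log2 changes of 0.30 ± 0.05, 0.16 ± 0.05 and 0.25 ± 0.05, and its partner in the m-AAA protease Afg3l2 had 0.08 ± 0.05, -0.01 ± 0.05 and -0.02 ± 0.05. Neither was called in either time course. New RNA of Lonp1 went from 76.6 and 61.5 CPM in DMSO to 60.2 and 57.4 with 24 h of dTAG (log2 change -0.23 ± 0.14, adjusted p = 0.371, quasi-likelihood test). At 6 h the change was -0.39 ± 0.14 for Lonp1 and -0.34 ± 0.11 for Spg7, with both libraries of each below the controls, and neither was called (adjusted p = 0.197 and 0.174, quasi-likelihood test). The 24 h changes in TT-seq were -0.04 ± 0.11 for Spg7 and 0.08 ± 0.12 for Afg3l2, which was within 0.1 log2 units of its controls at every time in both courses. Spg7 lies wholly inside a longer annotated gene on the same strand, Gm20388, so its reads cannot be assigned with certainty.

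Over the RNA-seq time course 1 of the 9, Htra2, fell and 0 rose at 24 h, where 3.41% of 13925 tested genes fell and 2.32% rose. At 48 h Htra2 fell and Hspa9 rose, against 7.71% and 10.5%, and at 72 h 1 fell and 0 rose, against 12% and 13.7%. The 0 higher at 24 and 72 h were also 0 by unadjusted glmTreat p under 0.05 and by DESeq2. Scaling by library size alone moved the median log2 change of all genes by 0.13 (24 h), 0.20 (48 h) and 0.22 (72 h). With it the genes lower and higher changed from 475 and 323 to 385 and 495 at 24 h, from 1073 and 1456 to 698 and 2047 at 48 h, and from 1677 and 1912 to 1109 and 2736 at 72 h, and Hspa9 was then called at 72 h (log2 0.81). In the contrast of 72 with 24 h 0 of the 9 were called in either direction, also by unadjusted p and by DESeq2, against 6.6% lower and 7.53% higher, and Clpb had a log2 difference of -0.51 ± 0.11. In TT-seq at 24 against 2 h 0 were called, against 0.056% and 0.0336%. There 2 of the 9 were lower at an unadjusted p under 0.05 and 1 higher, and DESeq2 called 0 lower and 1 higher. These shares are 10 and 6 genes by edgeR, against 195 lower and 229 higher by DESeq2 and 490 and 820 with no filter.

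Other genes of mitochondrial protein quality control were described by lists. Of 10 other mitochondrial chaperones and cofactors, 0 were called by edgeR in any of the TT-seq and RNA-seq contrasts of dTAG with DMSO, and their median log2 change was -0.12 in TT-seq at 24 h and -0.15 in RNA-seq at 72 h. In any of these contrasts at most 1 of them was lower and at most 1 higher at an unadjusted p under 0.05. DESeq2 results for list genes were kept only where edgeR had called the gene in some contrast of this report. That left 6 of these 10, of which DESeq2 called 0, and the others were not checked by it. Of 18 other proteases and assembly factors, 2 fell and 0 rose in TT-seq at 24 h by edgeR. There 3 were higher at an unadjusted p under 0.05, and DESeq2, with results kept for 13 of the 18, called 1 higher. In RNA-seq at 72 h 3 fell and 1 rose. Over all genes 4.09% fell and 2.02% rose in TT-seq at 24 h, and 12% fell and 13.7% rose in RNA-seq at 72 h, so the list's counts at 72 h lie near those shares. Those that fell included Phb and Phb2, the prohibitins that scaffold the m-AAA protease. Phb went from 110 and 104 CPM in DMSO to 51.9 and 52.2 after 72 h (log2 change -1.03 ± 0.06) and Phb2 from 404 and 401 to 232 and 233 (-0.79 ± 0.04). Bcs1l, an assembly factor of respiratory complex III, fell too (-0.90 ± 0.11), and Lactb, a filament-forming protein of the space between the membranes, rose (1.83 ± 0.13).

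Of 10 stress genes that the mitochondrial unfolded protein response draws on, 1 rose in TT-seq at 24 h, 3 in RNA-seq at 24 h and 5 each at 48 and 72 h. In TT-seq at 24 h 4 were higher at an unadjusted p under 0.05 and DESeq2, with results kept for 9 of the 10, called 3. Over all genes 2.02%, 2.32%, 10.5% and 13.7% rose in these contrasts. By edgeR 0 fell in these 4 contrasts, also at an unadjusted p under 0.05 and by DESeq2 for the 9 with results kept. Their median log2 change was 0.52 in TT-seq at 24 h and 0.66 in RNA-seq at 72 h, beside 0.01 and 0.02 for all genes. Atf5 went from 49.0 and 42.3 CPM in DMSO to 158 and 165 after 24 h and 455 and 471 after 72 h (log2 change 3.35 ± 0.06 at 72 h). Ddit3 went from 11.6 and 12 to 59.7 and 58.0 and then 96.4 and 88.2 CPM (2.96 ± 0.08). Trib3, a pseudokinase induced by DDIT3, rose as well (1.77 ± 0.05), and so did the stress phosphatase subunit Ppp1r15a (1.17 ± 0.06).

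Of 11 cytosolic heat shock genes tested in RNA-seq 1 fell and 0 rose at 24 h, 3 fell and 1 rose at 48 h, and 2 fell and 1 rose at 72 h. The shares over all genes at these times were 3.41% lower and 2.32% higher, 7.71% and 10.5%, and 12% and 13.7%, and the list's counts at 72 h lie near them. The 0 higher at 24 h came with 1 at an unadjusted glmTreat p under 0.05 and 0 by DESeq2, which called 1 lower at 48 h in place of 3. At each time 8 of the 11 had a log2 change below 0, and the median was -0.19, -0.39 and -0.45, beside 0.02, 0.01 and 0.02 for all genes. Hsph1, the Hsp110 disaggregation partner, fell from 146 and 156 CPM in DMSO to 32.7 and 31.5 after 24 h and stood at 65.2 and 60.7 after 72 h (log2 change -2.24 ± 0.06 and -1.27 ± 0.06). Hsp90aa1 fell (-0.95 ± 0.05) and Hspa4l rose (1.48 ± 0.15) at 72 h. Beside these lists, the 9 members had a median of 0.07, 0.06 and 0.25 at the 3 times.

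**Figure D4:**
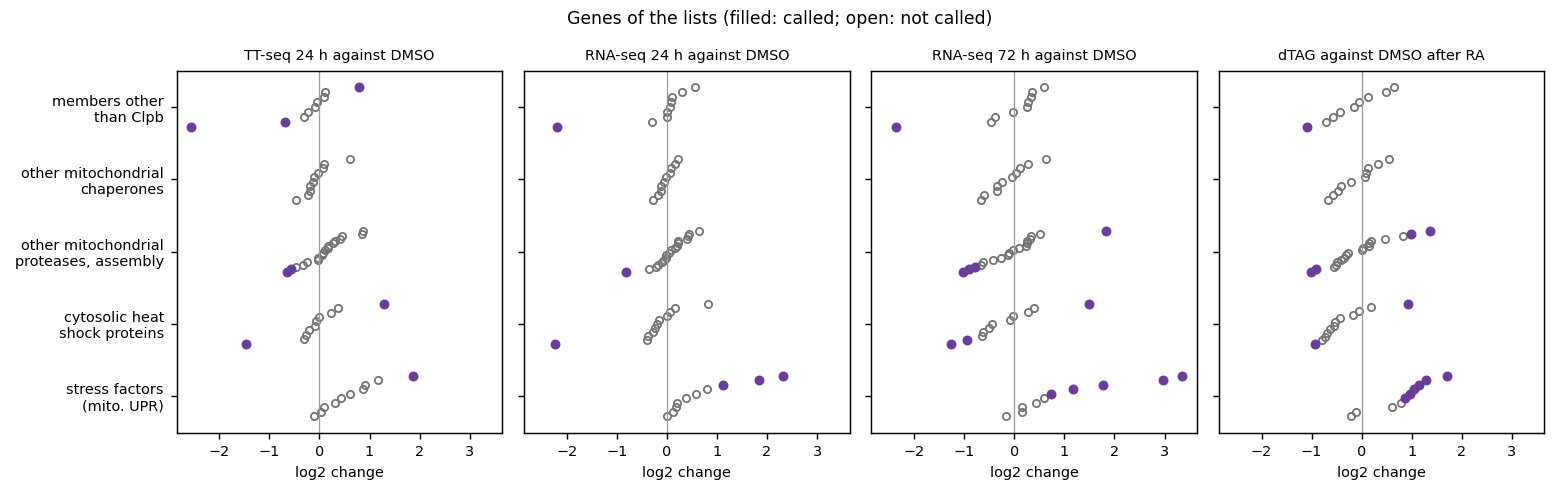
Log2 change (horizontal) of each tested gene of the 9 members and the 4 lists (vertical) in 4 contrasts of dTAG-V1 with DMSO, filled where called and open where not. In each panel 8 or 9 of the 10 stress genes lie to the right of 0, called or not, with Atf5 at 3.35 in RNA-seq at 72 h. The called member far to the left in each panel is Htra2.

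The RA table holds its own DMSO and dTAG libraries. Before RA 1 of the 9, Htra2, was lower in dTAG and 0 were higher, against 3.66% and 2.74% of 15915 tested genes, and after RA it was again 1 and 0, against 7.36% and 9.1%. The 0 higher were 0 by unadjusted glmTreat p under 0.05 and by DESeq2 in both. Clpb stood at 138 and 158 CPM in DMSO and at 16.6 and 17.1 in dTAG before RA, a fall of 8.78-fold. After RA it stood at 200 and 183 CPM in DMSO and at 60.3 and 55.7 in dTAG, a fall of 3.31-fold. The depleted libraries lay below their controls in both states, and the depleted libraries after RA lay above those before.

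Htra2 went the same way. It stood at 42.3 and 45.5 CPM in DMSO and 8.88 and 9.96 in dTAG before RA, and at 37.1 and 41.4 and 18.3 and 18.2 after RA. In both states the groups were apart. The fall was 4.64-fold before RA (adjusted p = 2.12e-11) and 2.15-fold after (adjusted p = 4.43e-05, glmTreat), and both calls held in all 10 alternatives. Aup1 fell 2.68-fold and 2.82-fold (adjusted p = 2.35e-08 and 2.47e-09).

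After RA Hspd1 was lower in dTAG, at 298 and 275 CPM against 475 and 469, but its 1.65-fold difference missed the threshold of 0.01 (adjusted p = 0.0462, glmTreat). Hspa9 was at 1712 and 1601 CPM against 1090 and 1036, a ratio of 1.56 that was not called (adjusted p = 0.301, glmTreat), but was called with library size alone (adjusted p = 0.000552, glmTreat) and by the quasi-likelihood rule (adjusted p = 2.11e-07). Of the 10 stress genes 4 were higher in dTAG before RA and 6 after it, with Ddit3 at 2.40 and 1.28 and Atf5 at 1.29 and 1.05 on the log2 scale. Over all genes 2.74% and 9.1% were higher, with a median of 0.06 and 0.003.

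The effect of RA in cells that kept ZFP143 uses no depleted library, but its DMSO libraries before RA are also the controls of the dTAG effect before RA. In DMSO 3 of the 9 fell with RA, Hspd1, Clpp and Lonp1, and 0 rose, where 18.1% of tested genes fell and 25.8% rose. Among the 9, 0 were higher by unadjusted glmTreat p under 0.05 or by DESeq2. Hspd1 went from 1123 and 1180 CPM to 475 and 469, 2.44-fold lower (adjusted p = 1.32e-09, glmTreat). Clpp went from 120 and 138 to 59.5 and 54.9, 2.26-fold lower (adjusted p = 1.69e-07). Lonp1 went from 323 and 377 to 183 and 172, 1.97-fold lower (adjusted p = 1.04e-05), a call lost when library size alone was used for scaling (adjusted p = 0.0986). Clpb had a log2 difference of 0.37 ± 0.08 with RA in DMSO, given as a description.

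**Figure D5:**
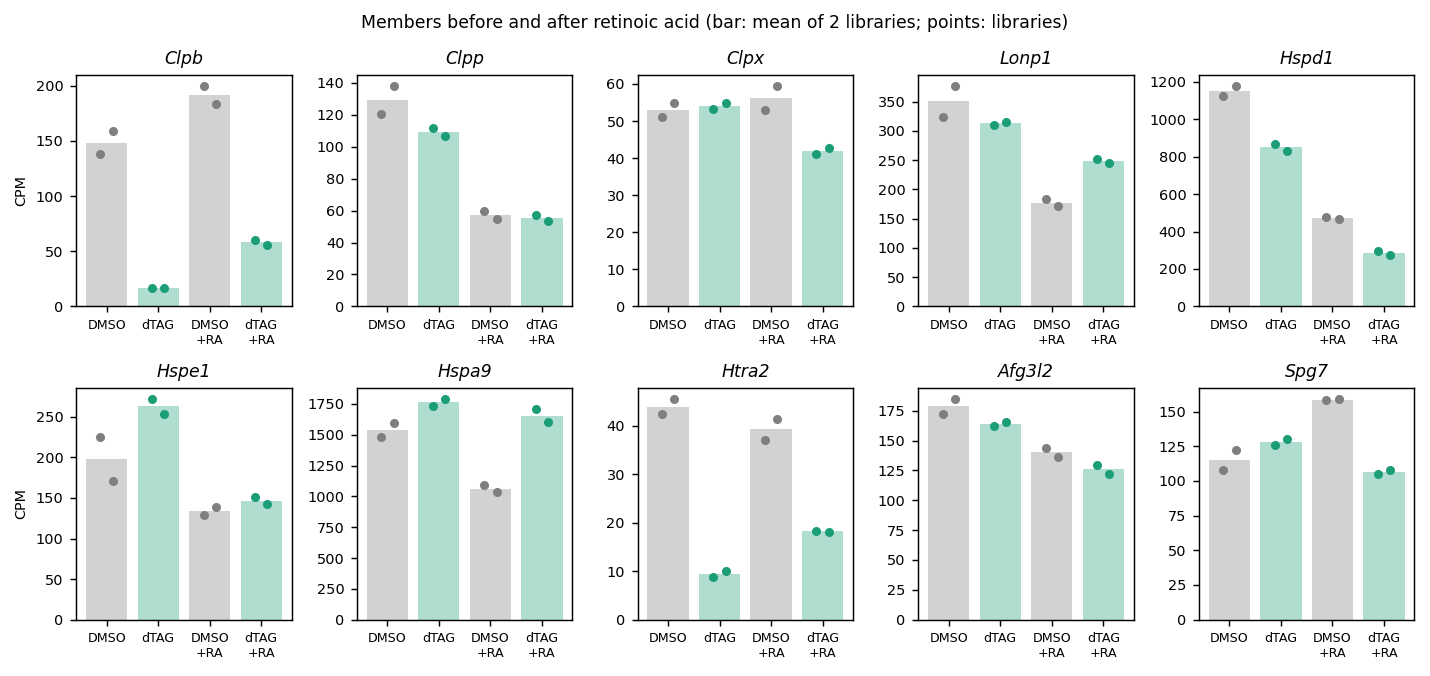
CPM (vertical) of each member in the 4 groups of the RA table (horizontal), DMSO in grey and dTAG in green, bars for the mean of 2 libraries and points for the libraries. Hspd1 and Clpp are lower after RA in both conditions, and Clpb and Htra2 are lower in dTAG both before and after RA, by a smaller fold after it.

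In dTAG 3 of the 9 fell with RA, Hspd1, Clpp and Hspe1, and 1 rose, Htra2, against 18.5% lower and 25% higher over all genes. Hspd1 went from 870 and 831 CPM to 298 and 275 (2.96-fold lower, adjusted p = 7.13e-12, glmTreat). Hspe1 went from 272 and 254 to 152 and 142, 1.79-fold lower (adjusted p = 0.00346), a call lost with library size alone (adjusted p = 1), with DESeq2 (0.109) and without dTAG replicate 1 (0.0282) or either depleted RA library (0.0296 and 0.110). Htra2 rose 1.92-fold (adjusted p = 0.00128), a call lost with no filter (0.0111), with DESeq2 (0.0122) and without dTAG replicate 1 (0.0239). The Clpp call was lost with library size alone (adjusted p = 0.372).

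The difference between both RA effects (dTAG less DMSO), tested as an interaction, was called for 3 of the 9, with 2 higher (Htra2 and Lonp1) and 1 lower (Spg7), against 13.7% higher and 18% lower over all genes. For Htra2 it was 1.11 ± 0.15 on the log2 scale (adjusted p = 4.36e-06, quasi-likelihood test), from -0.17 in DMSO and 0.94 in dTAG. For Lonp1 it was 0.65 ± 0.11 (adjusted p = 5.29e-05), from -0.98 and -0.34, and its depleted RA libraries stood at 251 and 245 CPM against 183 and 172 in the controls. For Spg7 it was -0.73 ± 0.10 (adjusted p = 8.45e-06), as its level went from 108 and 122 to 158 and 159 CPM in DMSO and from 126 and 130 to 105 and 108 CPM in dTAG. All 3 held in all 13 alternatives. Scaling by library size alone moved the median of all genes by 0.32 with RA in DMSO and 0.39 with RA in dTAG. The genes lower and higher then went from 2877 and 4113 to 1710 and 5164 with RA in DMSO, from 2939 and 3980 to 1518 and 5447 with RA in dTAG, and from 2863 and 2186 to 2404 and 2538 for the interaction. Among dTAG effects they went from 583 and 436 to 481 and 626 before RA and from 1171 and 1449 to 762 and 2089 after RA. For Clpb the interaction was 1.41 ± 0.12, given as a description. The depleted libraries before and after RA differ in hours of dTAG as well, which cannot be told apart from RA in this contrast. After RA the summed levels of marker lists also differed between the conditions. The 3 neural markers summed to 76.1 to 84.7 CPM in DMSO and 36.5 to 37.1 in dTAG, the 4 fibroblast markers to 7.07 to 10.5 and 26.7 to 27.1, and the 4 primitive endoderm markers to 22.2 to 23.3 and 45.0 to 46.5. Their part in the members' dTAG effects after RA and in the interaction was not tested.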

How the data were processed

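The authors mapped TT-seq and RNA-seq reads with STAR to mm10 and deposited raw read counts per gene on GENCODE, for TT-seq without duplicates and split by strand with HTSeq, for RNA-seq by STAR. They also deposited 1 list of ZFP143 peaks from an HA antibody against input, with a score, the fold enrichment (a ratio) and −log10 of q from MACS2, and 1 list of CTCF peaks with positions alone, pooled over DMSO and dTAG. The lists have no replicates. The 4C files and the ATAC-seq and Hi-C samples were not used here.

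Symbols and positions came from GENCODE vM21 of the same build, in which 55141 of 55401 identifiers were found without their version. A gene was tested when 4 or more of the 8 libraries held over 10 counts. Tests used edgeR 4.0.16 (R 4.3.3) after TMM scaling, in 1 fit per table with 4 groups of 2 libraries. TT-seq and the interaction used the quasi-likelihood test, and RNA-seq glmTreat. P-values were adjusted by the Benjamini-Hochberg method over all genes tested (TT-seq 17870, time course 13925, RA experiment 15915). The biological coefficients of variation were 17.2% (TT-seq), 3.65% (time course) and 5.92% (RA table). Replicate spread is that of 2 libraries. The scripts were tested on simulated data. The members and lists were chosen with earlier results of these data known. Named were the 10 members, Zfp143, genes that start within 1000 bp of a member's start, the 5 genes nearest Clpb, and at most 4 called genes per list and contrast. Alternatives were DESeq2 1.42.0 and its size factors, library size alone, no filter, a replicate block, leaving out each library, the quasi-likelihood rule in place of glmTreat, and for peaks a distance of 500 bp or at least 10-fold enrichment. Sequences came from the RefSeq assembly GRCm38.p6.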

Additional observations from a re-analysis of the deposited data

Results flagged for a closer look

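For 3 members the RA effect differed between depleted and control cells by the test of that difference. The interaction was 1.11 for Htra2, 0.65 for Lonp1 and -0.73 for Spg7 on the log2 scale. Over all genes it was called for 13.7% in the higher and 18% in the lower direction. Depleted libraries before and after RA also differ in hours of dTAG, which cannot be told apart from RA. Htra2 had no call with RA in DMSO and rose with RA in dTAG, Lonp1 fell with RA in DMSO and was not called in dTAG, and Spg7 was called with RA in neither. Counts for Spg7 cannot be told apart from those of the longer gene that contains it.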

How the results depend on the processing

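Of 1290 member values under alternatives 24 lost a call, 19 gained 1 and 0 called values reversed. The other 1247 kept their side of the threshold, and 55 of these, called in neither, changed sign. Among the 9 members besides Clpb, DESeq2 called 0 lower in TT-seq at 2 h against 1, 1 higher at 24 against 2 h against 0, and 2 lower and 0 higher with RA in dTAG against 3 and 1. With no filter 1 was higher in TT-seq at 24 against 2 h, 0 were higher with RA in dTAG, and 2 were lower for the interaction. The quasi-likelihood rule in place of glmTreat called 1 higher at 24 h and 1 at 72 h in RNA-seq, 3 lower and 1 higher in dTAG after RA, and 5 of 10 lower with RA in DMSO. Library size alone, which moved the median log2 change of all genes by up to 0.39, called 1 higher at 72 h, 1 higher in dTAG after RA, 2 lower (Lonp1 lost) and 1 higher (Spg7 gained) with RA in DMSO against 3 and 0, 1 lower with RA in dTAG and 3 higher for the interaction against 2 (Hspa9 gained, log2 0.51). Leaving out 1 library, with the lone sample assumed to vary like the other groups, gave 0 lower in TT-seq at 2 h, 0 to 1 at 6 h, 1 at 24 h with 0 to 1 higher, 2 to 3 lower (Hspe1 lost) and 0 to 1 higher with RA in dTAG, and 1 to 2 lower and 2 to 3 higher (Hspa9 gained without depleted RA replicate 2) for the interaction. Over all genes it moved the calls in TT-seq from 435 lower and 30 higher to 102 to 290 and 10 to 31 at 2 h, from 506 and 71 to 109 to 309 and 8 to 38 at 6 h, from 730 and 361 to 340 to 467 and 98 to 165 at 24 h, and from 10 and 6 to 0 at 24 against 2 h. In RNA-seq genes higher went from 323 to 207 at 24 h without DMSO replicate 2 and from 436 to 224 to 286 before RA. DESeq2 gave fewer RNA-seq genes higher, 102 (24 h), 780 against 1456 (48 h), 1123 against 1912 (72 h), 143 (before RA) and 789 against 1449 (after RA), and fewer lower after RA, 765 against 1171. At 72 against 24 h it gave 478 lower and 535 higher against 919 and 1048. In TT-seq it gave more higher, 52 (2 h) and 157 (6 h). The quasi-likelihood rule gave 1187 lower and 1591 higher (24 h), 2352 lower and 2944 higher (48 h), 3066 lower and 3398 higher (72 h), 2332 lower and 2606 higher (72 against 24 h), 1342 lower and 2302 higher (before RA) and 2966 lower and 3333 higher (after RA). It gave 4508 genes lower with RA in DMSO against 2877 and 4725 with RA in dTAG against 2939. With no filter TT-seq had 774 lower and 162 higher (2 h), 980 lower and 338 higher (6 h) and 1178 lower and 1025 higher (24 h). At 24 against 2 h, with 10 lower and 6 higher, DESeq2 gave 195 lower and 229 higher, its size factors alone 16 lower and 10 higher, no filter 490 lower and 820 higher, and library size alone 19 higher. Of the 10 members, 3 in place of 5 were bound with peaks of at least 10-fold enrichment, a cut at which the share of all genes was not computed.

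Replicate numbers are shared by the groups, but 2 per group do not show that they pair the samples. Replicate differences correlated between 0.193 and 0.631 in TT-seq, between -0.042 and 0.062 in the time course and between -0.099 and 0.125 in the RA table. With the number as a block, 1 of the 9 was higher in TT-seq at 24 against 2 h in place of 0, Hspa9 (log2 0.69, adjusted p = 0.0168), and no other member's call changed. Over all genes the block raised the calls in TT-seq to 662 lower and 87 higher (2 h), 956 lower and 359 higher (6 h), 1214 lower and 1009 higher (24 h), and 390 lower and 572 higher (24 against 2 h). With 2 libraries a group and 10 to 92 Htra2 reads in TT-seq, small changes of low genes are hard to detect.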
